A study of Mus musculus with 35 samples.

Results

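The genes described here encode 10 proteins grouped as airway secretory and mucosal defence proteins. Scgb1a1, Scgb3a1 and Scgb3a2 are secretoglobins, Bpifa1 and Bpifb1 are BPI-fold proteins, and Muc5b is a mucin. The others are lactoferrin (Ltf), the polymeric immunoglobulin receptor (Pigr), the lectin Reg3g and the resistin-like protein Retnla, which macrophages also make. The genes were taken by gene symbol from a deposited table of normalised expression values for 22211 genes, and all 10 were found once. All 10 had a value of at least 1 in each of 35 libraries and so passed the filter on low values (at least 1 in at least 3 libraries), as did 16786 genes in all.

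The libraries are of polyA RNA from the left lung of male mice aged 7 to 9 weeks. Wild-type mice (28) were injected under the skin on 2 consecutive days with 3 µg per g of anti-Ly6G, the 1A8 antibody to a surface protein of neutrophils, or of a control IgG. The other 7 mice carried MRP8-Cre and iDTR-flox, which puts a diphtheria toxin receptor on cells in which the myeloid MRP8 promoter has driven Cre, and received 10 ng per g of diphtheria toxin (DT). Lungs were perfused and taken on the following day at ZT4 (4 h after lights on, in the rest phase) or ZT16 (in the active phase) of a 12 h light and 12 h dark cycle. Control and anti-Ly6G groups held 7 mice each, 3 from a July 2017 and 4 from a September 2017 batch, while the DT groups held 4 mice at ZT4 and 3 at ZT16, all from an April 2018 batch. ZT16 mice lived in cabinets with inverted light, so time and housing cannot be told apart. No control mice belonged to the April batch, so DT, genotype and batch cannot be told apart either.

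Airway secretory proteins form the liquid and mucus layer that traps inhaled particles and microbes. Club cells of the bronchioles secrete secretoglobins, goblet and gland cells secrete mucins, and BPI-fold proteins, lactoferrin and REG lectins act on bacteria in the lining fluid. Pigr carries polymeric IgA across the epithelium, which releases it as secretory IgA. In whole lung, fewer cells of a type and less RNA per cell cannot be told apart.

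Promoter sequences are shown for 5 genes on which the results turn and whose 250 bases before the RefSeq start (GRCm38.p6) held a motif that was searched for and no exon of the gene. They are written 5′ to 3′ on the gene's strand, with the matches in capitals. Pigr is shown because it was lower at ZT16 in both control and anti-Ly6G mice, Scgb3a1, Bpifa1 and Bpifb1 because they were higher at ZT16 in DT mice, and Reg3g because it followed Bpifb1 most closely from library to library. The windows are chr1:130826434-130826683 (plus strand) for Pigr, chr11:49663345-49663594 (plus) for Scgb3a1, chr2:154142630-154142879 (plus) for Bpifa1, chr2:154190568-154190817 (plus) for Bpifb1 and chr6:78468875-78469124 (minus) for Reg3g.
Pigr: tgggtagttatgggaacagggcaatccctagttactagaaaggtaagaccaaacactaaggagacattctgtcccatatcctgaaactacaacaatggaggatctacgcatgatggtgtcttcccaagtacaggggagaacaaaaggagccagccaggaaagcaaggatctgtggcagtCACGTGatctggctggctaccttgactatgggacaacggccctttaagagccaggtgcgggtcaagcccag
Scgb3a1: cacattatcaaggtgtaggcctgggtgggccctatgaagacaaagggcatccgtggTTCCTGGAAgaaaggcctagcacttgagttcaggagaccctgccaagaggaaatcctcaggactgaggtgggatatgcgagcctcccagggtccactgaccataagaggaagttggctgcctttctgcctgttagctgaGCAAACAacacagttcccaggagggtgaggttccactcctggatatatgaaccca
Bpifa1: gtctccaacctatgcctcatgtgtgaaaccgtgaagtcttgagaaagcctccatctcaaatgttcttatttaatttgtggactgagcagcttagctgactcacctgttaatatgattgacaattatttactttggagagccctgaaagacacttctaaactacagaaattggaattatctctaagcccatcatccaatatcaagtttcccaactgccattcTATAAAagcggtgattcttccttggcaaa
Bpifb1: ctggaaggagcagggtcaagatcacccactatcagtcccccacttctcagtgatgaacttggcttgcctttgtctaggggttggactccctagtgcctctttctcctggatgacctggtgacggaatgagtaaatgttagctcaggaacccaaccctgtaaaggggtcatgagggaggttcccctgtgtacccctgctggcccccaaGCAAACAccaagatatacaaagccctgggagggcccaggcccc
Reg3g: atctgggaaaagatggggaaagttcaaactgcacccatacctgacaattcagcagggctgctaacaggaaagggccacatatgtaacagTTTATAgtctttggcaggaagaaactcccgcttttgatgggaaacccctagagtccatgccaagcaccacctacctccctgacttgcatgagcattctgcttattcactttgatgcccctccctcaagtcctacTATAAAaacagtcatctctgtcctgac
RefSeq promoters of 7 of the 10 genes were used. Scgb1a1 and Muc5b had no promoter entry, and Scgb3a2 was excluded from the search beforehand, so these genes are named only. Motifs were searched on both strands of the 250 bases before the start. The E-box CACGTG, a sequence bound by clock factors, was found in 1 of the 7, Pigr, with its first base 71 bases before the start, and 6.021% of the 32851 promoters of the table held it. The FOXA letters TGTTTGC lay 55 bases before the start of Scgb3a1 and 43 before that of Bpifb1, in both cases on the opposite strand, and 4.301% of all promoters held them. A TATA box, TATAAA, lay 29 bases before the start of Bpifa1, 27 before that of Reg3g and 30 before that of Retnla, against 12.37% of all promoters. The window of Retnla (chr16:48842359-48842608) runs past the annotated start of the gene (48842551), so its distance holds for the RefSeq start only. Reg3g also held the TATA letters on the opposite strand 161 bases before its start. TTCNNNGAA, the letters of STAT sites, lay 194 bases before the start of Scgb3a1 (7.02% of all promoters). The D-box letters TTATGNAA (3.068% of all promoters) and the FOXA letters TGTTTAC (3.166%) were in none of the 7 windows. None of these letters overlapped another match. A match describes the sequence and not a bound site.

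Bpifa1 and Bpifb1 are neighbours on chromosome 2 of GRCm38, on the same strand, with 41598 bases and 1 gene between them. Bpifa1 spans 154142880 to 154149219 and Bpifb1 154190818 to 154220369. Exons of the 10 genes shared 0 bases with exons of any other annotated gene.

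Facts of the whole table frame the values. Column sums ranged from 962648.5 to 1033550 and read depth is unknown. Scgb1a1, the main club cell protein, was the largest value of the table in 35 of 35 libraries and took 2.11% to 4.03% of the sum. Whether the scale corrects for gene length is not stated, so levels are compared within a gene only. The ZT4 DT library 1, numbered by table order, was the lowest of all 35 in Scgb1a1, Scgb3a1, Bpifb1, Muc5b, Ltf and Reg3g, and ZT16 DT library 1 was the highest in Ltf and Retnla, so the calls of the 10 genes and the counts of the gene lists in DT mice are given with and without both.

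**Figure D1:**
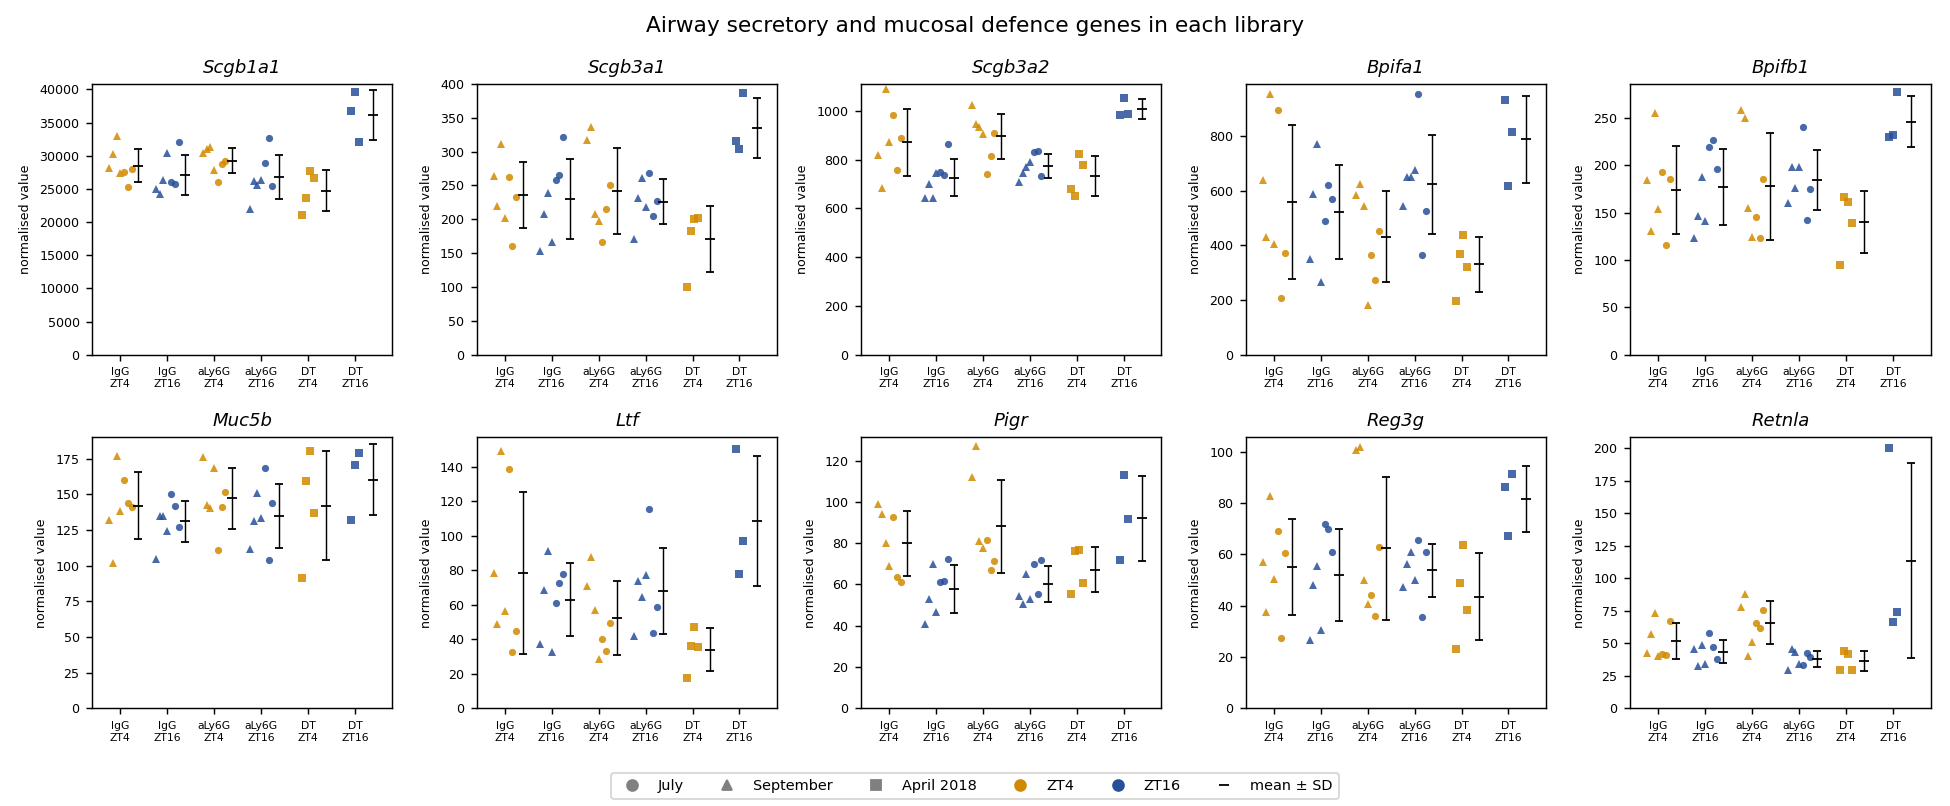
Normalised value of each gene in each of the 35 libraries, by treatment (control IgG, anti-Ly6G written aLy6G, DT) and time, with the marker for the batch and a black bar for the group mean ± SD. In DT mice the 3 ZT16 libraries lie above all 4 ZT4 libraries for 8 of 10 genes, while those of control and anti-Ly6G mice overlap for all 10.

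In DT mice the airway secretory genes were higher at ZT16 than at ZT4. All 10 differences were positive, as were 48.5% of those of all genes. By limma, 7 of 10 genes rose and 0 fell at an adjusted p under 0.05, against 5.3% of all 16786 genes that rose and 9.98% that fell. The 7 were Scgb1a1, Scgb3a1, Scgb3a2, Bpifa1, Bpifb1, Ltf and Retnla, with rises from 1.38-fold to 3.22-fold. The median difference was 0.91 on the log2 scale over the 10 genes and -0.00902 over all genes. For 8 genes every ZT16 value lay above every ZT4 value, which held for 10.9% of all genes. The 10 genes were chosen with earlier results of these data known, and part of them varied together from mouse to mouse. Their counts here and below are descriptions and not independent results.

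Scgb1a1 had values of 21012.5, 23592.4, 27738.7 and 26639.4 in the ZT4 DT mice. Its values in the ZT16 DT mice were 36739.6, 39576.2 and 32036.6. All 3 ZT16 mice stood above all ZT4 mice, and the difference was 0.55 ± 0.16 (log2 ± SE, adjusted p = 0.0197). Scgb3a1, a secretoglobin of the larger airways, rose from 99.6, 182.6, 200.9 and 202.3 to 315.0, 304.6 and 386.0, by 1.01 ± 0.24 (adjusted p = 0.00474). The lowest ZT4 mouse was well under the other 3, and the groups did not overlap. Scgb3a2, a secretoglobin of club cells, had 678.8, 653.0, 822.5 and 779.4 at ZT4 and 985.1, 1053.8 and 986.4 at ZT16. Its rise of 0.46 ± 0.12 (adjusted p = 0.00663) was the smallest of the 7, and the groups did not overlap.

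Bpifa1, which holds back bacteria and lowers the surface tension of airway liquid, was at 197.4, 369.8, 436.7 and 321.0 in ZT4 DT mice. At ZT16 it was at 933.1, 617.5 and 816.8, a rise of 1.29 ± 0.41 (adjusted p = 0.0295) without overlap. Bpifb1, its neighbour on chromosome 2, went from 94.9, 166.2, 161.6 and 138.7 to 229.3, 231.8 and 277.0, a rise of 0.84 ± 0.25 (adjusted p = 0.0209). The values of Bpifb1 did not overlap either. Muc5b, a gel-forming mucin, had 91.7, 159.4, 180.6 and 136.8 at ZT4 and 131.9, 170.2 and 178.8 at ZT16. These values overlapped, and the difference of 0.20 ± 0.18 did not pass (adjusted p = 0.473, 95% interval -0.16 to 0.57).

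Ltf, an iron-binding protein of airway glands and of neutrophil granules, was at 17.3, 36.2, 47.1 and 35.5 in ZT4 DT mice. It was at 150.6, 77.8 and 97.0 at ZT16, a rise of 1.69 ± 0.43 (3.22-fold, adjusted p = 0.0083). The lowest ZT16 value was above the highest ZT4 value, and the ZT16 mice spread widely. Other granule genes were near the floor: Camp, Mpo and Elane were under 1 in every library of all 6 groups, and Ngp had a highest value of 2.51. Summed over the 6 other granule genes of the table, the level ran from 57.9 to 86.1 in ZT4 DT mice and from 51.2 to 88.6 in ZT16 DT mice, so it overlapped, and most of it was Lcn2 (55.5 to 84.1 and 49.1 to 85.4), which airway epithelium also makes. Without ZT4 library 1 and ZT16 library 1 the sum ran from 57.9 to 62.1 and from 51.2 to 55.7, lower at ZT16.

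Reg3g, a lectin that binds Gram-positive bacteria, had 23.2, 49.0, 63.4 and 38.5 at ZT4 and 86.1, 67.0 and 91.4 at ZT16 in DT mice. The values did not overlap, but the difference of 0.98 ± 0.36 did not pass (adjusted p = 0.0626). Pigr had 55.3, 76.0, 76.5 and 60.6 at ZT4 and 71.6, 112.8 and 91.5 at ZT16. One ZT16 value lay inside the ZT4 range, and the difference of 0.44 ± 0.20 did not pass (adjusted p = 0.139). Retnla, made by macrophages and airway epithelium in type 2 immune responses, had 29.4, 44.4, 41.6 and 29.6 at ZT4 and 199.8, 66.7 and 73.9 at ZT16. It rose by 1.47 ± 0.27 (2.77-fold, adjusted p = 0.000572) without overlap, and ZT16 library 1 was far above the other 2. That library also had the highest summed alveolar macrophage genes of the ZT16 DT libraries (727.2, against 421.7 and 523.2). The same held for summed interstitial macrophage genes (698.2, against 376.0 and 420.5). The part of macrophages in the rise of Retnla was not tested.

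**Figure D2:**
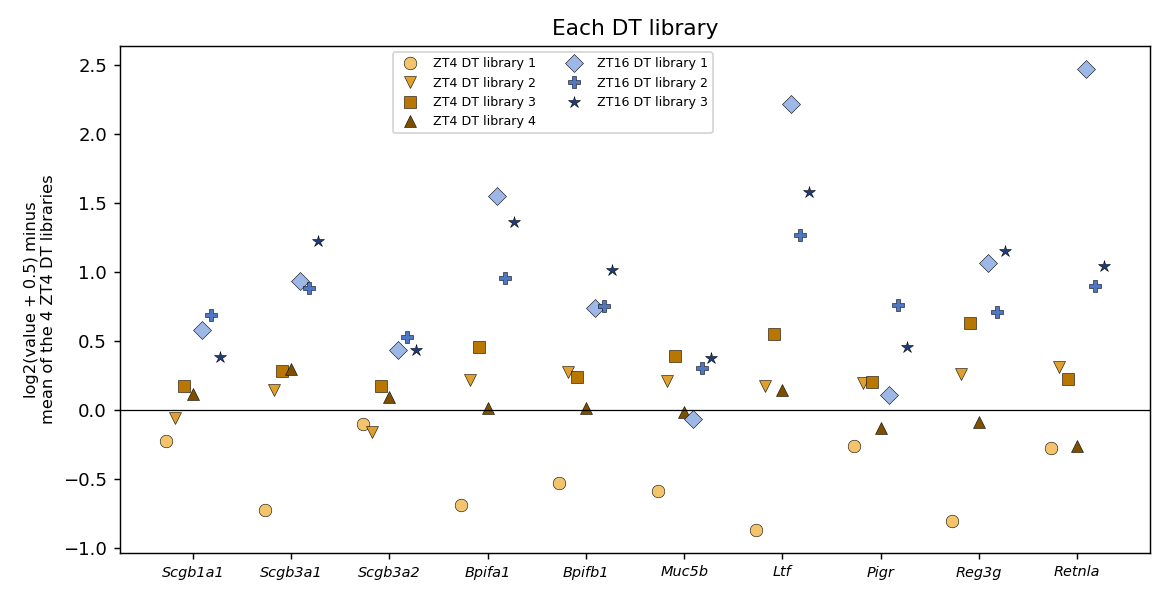
Each DT library as its log2(value + 0.5) minus the mean of the 4 ZT4 DT libraries (y axis), per gene. ZT16 library 1 is the highest for Ltf, Retnla and Bpifa1 and the lowest of the ZT16 libraries for Scgb3a2, Bpifb1, Pigr and Muc5b, and ZT4 library 1 is the lowest of the 7 for 9 of 10 genes.

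Library by library, 8, 9 and 9 of the 10 genes lay above the highest ZT4 DT value in ZT16 libraries 1, 2 and 3, with median differences from the ZT4 mean of 0.84, 0.76 and 1.03 (log2). Retnla stood 2.47 above that mean in library 1 and 0.90 and 1.04 in the other 2. Ltf stood 2.22, 1.27 and 1.58 above it. Pigr showed another order, at 0.11 in library 1 and 0.76 and 0.46 in libraries 2 and 3. Without ZT16 library 1, 4 genes passed, and without ZT4 library 1, 3 genes passed. Scgb1a1 did not pass without any one of ZT4 library 1 and ZT16 libraries 1 and 2, nor Bpifa1 without ZT4 library 1 or ZT16 library 1 or 3, Bpifb1 without ZT4 library 1 or ZT16 library 3, or Ltf without ZT4 library 1 or ZT16 library 1. Reg3g passed without ZT4 library 3 (1.19, adjusted p = 0.0327). Without both libraries 0 genes passed, with Retnla at 0.88 (adjusted p = 0.064), Scgb3a2 at 0.45 (adjusted p = 0.0704), Ltf at 1.14 (adjusted p = 0.194) and all 10 differences still positive. Scgb1a1 did not pass when the DT groups were fitted alone (adjusted p = 0.268) or with no filter on low values (adjusted p = 0.126).

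In control mice, few of the genes differed by time. By limma 2 of 10 fell and 0 rose, against 4.38% of all genes that fell and 4.65% that rose. The times did not separate for any of the 10, whereas 1.36% of all genes were higher and 1.02% lower without overlap. Pigr had a lowest, median and highest value of 61.0, 80.2 and 99.0 at ZT4 and of 40.8, 61.4 and 72.2 at ZT16. The 2 ranges overlapped, and Pigr fell by 0.46 ± 0.14 on the log2 scale (adjusted p = 0.0351). The difference was -0.13 in July mice alone, where it did not pass (adjusted p = 0.763), and -0.71 in September mice alone (adjusted p = 0.022). Scgb3a2 ranged from 685.4 to 1089.8 (median 874.4) at ZT4 and from 641.2 to 863.7 (median 738.4) at ZT16, and it fell by 0.25 ± 0.08 (adjusted p = 0.0427). It did not pass in July (-0.16, adjusted p = 0.588) or September mice alone (-0.33, adjusted p = 0.0863). Leaving out ZT4 library 1, 3 or 5 or ZT16 library 1 or 2 left 0 calls, and leaving out ZT4 library 2, 4 or 7 or ZT16 library 3, 4, 5 or 6 left 1. Without ZT4 library 3, Pigr had an adjusted p of 0.0568 and Scgb3a2 of 0.127.

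The other 8 genes did not pass in control mice, with differences from -0.23 (Retnla) to 0.0351 (Bpifb1). Their intervals were wide for the most variable genes: that of Bpifa1 ran from -0.58 to 0.58 and that of Ltf from -0.80 to 0.43. Scgb1a1 ranged from 25272.9 to 32988.6 at ZT4 (median 27989.3) and from 24196.8 to 32051.7 at ZT16 (median 25980.3), a difference of -0.076 ± 0.11 (adjusted p = 0.745). Ltf ranged from 32.9 to 149.2 (median 56.3) at ZT4 and from 32.8 to 91.6 (median 68.6) at ZT16. In both genes the ranges overlapped over most of their width. Bpifa1 ranged from 207.5 to 953.6 (median 430.5) at ZT4 and from 267.5 to 772.4 (median 570.9) at ZT16. Bpifb1 ranged from 115.8 to 255.5 (median 184.8) and from 123.7 to 226.2 (median 187.5), and Reg3g from 27.2 to 82.7 (median 57.0) and from 26.8 to 71.9 (median 55.6). In these 3 genes the spread at either time was wider than the difference of the medians. Scgb3a1 ranged from 160.3 to 311.0 (median 232.8) and from 153.1 to 321.9 (median 239.5). Muc5b ranged from 101.7 to 176.7 (median 141.1) and from 104.8 to 149.9 (median 134.5), and Retnla from 39.9 to 73.1 (median 42.4) and from 32.7 to 57.9 (median 45.95). None of them separated the times.

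In anti-Ly6G mice, Pigr and Retnla were lower at ZT16. These 2 of 10 genes fell and 0 rose by limma, against 10.4% of all genes that fell and 10.6% that rose. None of the 10 separated the times, while 3.12% of all genes were higher and 2.06% lower without overlap. Pigr ranged from 66.9 to 127.0 at ZT4 (median 81.0) and from 50.6 to 71.7 at ZT16 (median 55.4), and fell by 0.53 ± 0.14 (adjusted p = 0.00773). The difference was -0.16 in July mice alone (adjusted p = 0.577) and -0.80 in September mice alone (adjusted p = 0.00555). Retnla ranged from 40.0 to 87.9 (median 66.0) at ZT4 and from 29.1 to 45.7 (median 39.3) at ZT16. It fell by 0.75 ± 0.19 (1.68-fold, adjusted p = 0.00506), with a difference of -0.81 in July mice alone (adjusted p = 0.0123) and of -0.70 in September mice alone, where it did not pass (adjusted p = 0.0583). Both genes overlapped between the times only at the edge of their ranges.

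Bpifa1 and Ltf had positive differences in anti-Ly6G mice that did not pass. Bpifa1 ranged from 180.4 to 624.0 (median 454.6) at ZT4 and from 364.7 to 952.7 (median 649.9) at ZT16, a difference of 0.59 ± 0.29 (adjusted p = 0.142). Ltf ranged from 28.4 to 87.8 (median 49.8) at ZT4 and from 42.2 to 115.5 (median 58.6) at ZT16, a difference of 0.39 ± 0.30 (adjusted p = 0.391). Scgb3a2 was at -0.21 ± 0.08 (adjusted p = 0.0645), and Scgb1a1, Scgb3a1, Bpifb1, Muc5b and Reg3g lay between -0.14 and 0.10.

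**Figure D3:**
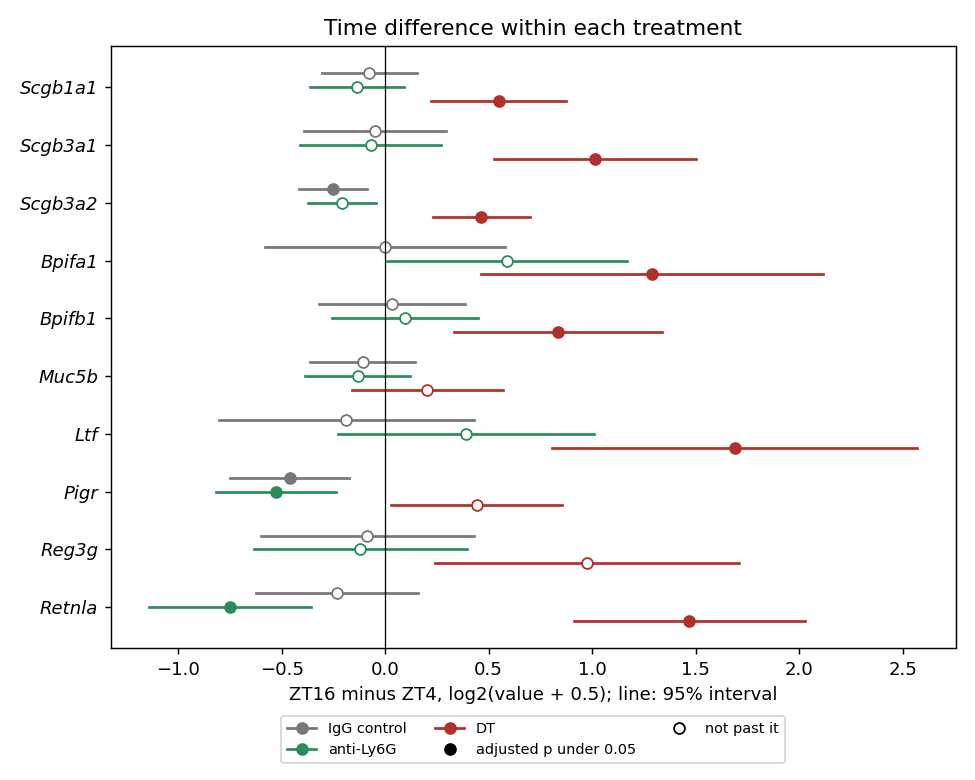
ZT16 minus ZT4 difference on the log2(value + 0.5) scale with its 95% interval for each gene in control, anti-Ly6G and DT mice. Filled points passed an adjusted p of 0.05: 7 in DT mice, all positive, and 2 each in control and anti-Ly6G mice, all negative.

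Time differences were then compared between treatments. The difference in DT mice exceeded that in control mice for 6 of 10 genes (4.93% of all genes were higher in this sense) and that in anti-Ly6G mice for 5 (7.44% of all genes). Both comparisons use the same DT mice. Retnla differed by 1.70 ± 0.33 from control (adjusted p = 0.00149) and by 2.22 ± 0.33 from anti-Ly6G mice (adjusted p = 3.73e-05), and Pigr by 0.90 ± 0.25 (adjusted p = 0.015) and 0.97 ± 0.25 (adjusted p = 0.00655). Scgb3a2 differed by 0.72 ± 0.14 and 0.67 ± 0.14, Scgb3a1 by 1.06 ± 0.29 and 1.08 ± 0.29, and Scgb1a1 by 0.62 ± 0.20 and 0.68 ± 0.20. Ltf passed against control (1.88 ± 0.53, adjusted p = 0.0177) but not against anti-Ly6G mice (1.30 ± 0.53, adjusted p = 0.0802). Without ZT4 DT library 1, 3 genes passed against control, and without both DT libraries named above 3 passed in each comparison: Scgb3a2, Pigr and Retnla.

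No difference between anti-Ly6G and control mice passed in any of the 10 genes. At ZT4, at ZT16 and in the time difference, 0 genes of the table (0%) passed by limma, while 1185, 701 and 1007 had an unadjusted p under 0.05, of which 0 were among the 10. The interval of the difference at ZT4 ran from -1.08 to 0.15 for Ltf and from -0.0519 to 0.73 for Retnla. For the time difference of Retnla it ran from -1.07 to 0.0342.

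The time difference was lower in September than in July mice for all 10 genes, with a median of -0.47, against 51.1% of all genes that were higher. No gene of the 10 passed by limma (0.101% of all genes passed), and 5 had an unadjusted p under 0.05, as did 2018 of all 16786 genes. Pigr differed by -0.61 ± 0.17 (adjusted p = 0.157), Reg3g by -0.74 ± 0.33 (adjusted p = 0.358) and Scgb3a1 by -0.58 ± 0.20 (adjusted p = 0.231).

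The genes also varied from mouse to mouse within a group, and part of them moved together. After the mean of each group and batch was removed, Ltf and Bpifa1 had residual SDs of 0.64 and 0.60 (log2), above 98.4% and 98.1% of all genes, against a median of 0.17. Scgb1a1 (0.14) and Scgb3a2 (0.15) were below that median. Over 35 libraries, the deviations of Bpifa1 and Ltf had Pearson's r = 0.956 and those of Bpifb1 and Reg3g r = 0.929. Bpifa1, Ltf, Reg3g, Bpifb1 and Scgb3a1 were all linked at 0.753 or more. Over the 45 pairs r ran from 0.0291 to 0.956 with a median of 0.512, against a median of -0.00254 between one of the 10 and any other gene. These values are descriptions, since the genes share their libraries.

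**Figure D4:**
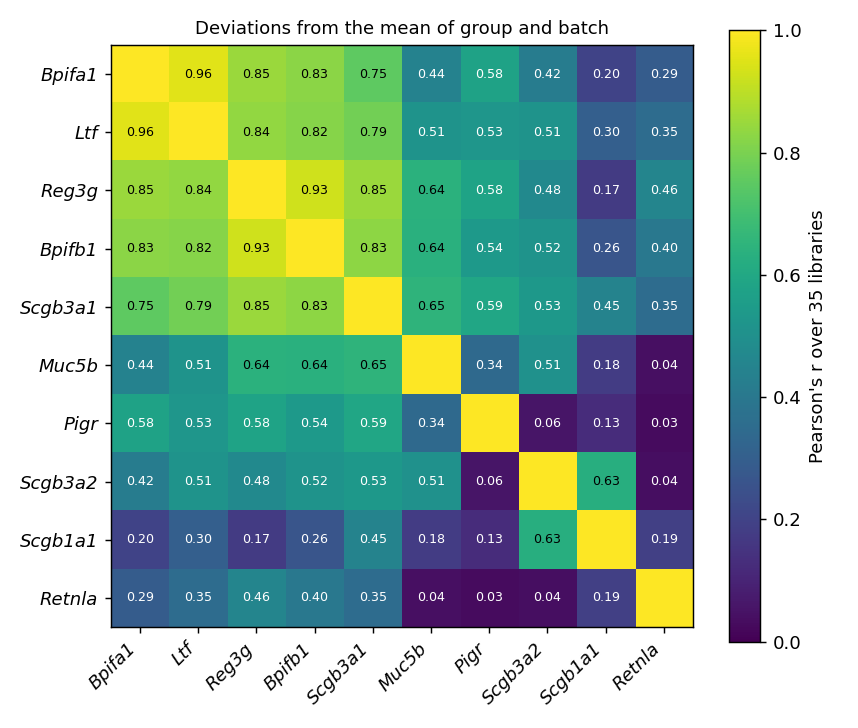
Pearson's r between deviations from the mean of group and batch, over 35 libraries, for each pair of genes (color scale from 0 to 1). Bpifa1, Ltf, Reg3g, Bpifb1 and Scgb3a1 form the block of high values, while Scgb1a1 pairs best with Scgb3a2 (0.63) and Retnla with none above 0.46.

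Outside the 10, the genes most like Bpifa1 were the basal cell keratins Krt15 (r = 0.852) and Krt5 (r = 0.84), which were also the closest to Ltf (0.81 and 0.837). Krt5 was low, with medians of 0.65 in ZT4 DT and 1.76 in ZT16 DT mice. Krt15 ranged from 0.48 to 1.48 in ZT4 DT mice and from 2.05 to 7.89 in ZT16 DT mice, and rose by 1.89 ± 0.53 (adjusted p = 0.014), or differed by 1.56 ± 0.63 without both DT libraries named above, which did not pass (adjusted p = 0.159). Scgb1a1 was most like Wfdc2 (0.862), an antiprotease-like secreted protein, Rpl36al and Ccdc153. Scgb3a1 was most like Tff2 (0.807), a trefoil peptide of mucous cells, and Pigr like Dcdc2a (0.854). Scgb3a2 was most like Mgst1 (0.807), Bpifb1 like Oit1 (0.788), Reg3g like Gp2 (0.76), Muc5b like Myl9 (0.752) and Retnla like Htra3 (0.701). Deviations of summed marker lists were also correlated with the 10 genes. Summed club cell genes were at 0.742 with Scgb1a1, and summed ciliated genes at 0.703 with Scgb1a1 and 0.708 with Scgb3a2. Summed goblet and mucin genes were at 0.623 with Bpifb1. Retnla was at 0.532 with summed alveolar macrophage genes, and at -0.139, -0.172 and 0.134 with the club, ciliated and goblet sums. Summed adipocyte markers were at 0.713 with Ltf, 0.691 with Bpifa1, 0.651 with Bpifb1 and 0.609 with Reg3g. The adipocyte sum ran from 73.7 to 104 in ZT4 DT and from 36.3 to 90.4 in ZT16 DT mice. In control mice it ran from 58.2 to 410.2 (median 80.7) at ZT4 and from 65.8 to 176.9 (median 87.0) at ZT16. Whether single libraries carry these correlations was not tested. The part of these cell types in the results was not tested.

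Other airway genes were counted beside the secretory genes in DT mice, where 5.3% of all genes rose and 9.98% fell. Of 19 tested club cell genes, 11 rose at ZT16 and 0 fell (median 0.39), among them Gsta4 (0.60), Cckar (0.51), Lypd2 (0.61) and Cbr2 (0.44), and the list includes Krt15. Of 12 ciliated cell genes, 7 rose and 0 fell, among them Cfap126 (0.65), Ccdc40 (0.42), Rsph1 (0.49) and Dynlrb2 (0.45). Their summed level ran from 778 to 974 at ZT4 and from 1012 to 1229 at ZT16, without overlap. Summed club cell genes ran from 9388 to 11752 and from 12389 to 15162, also without overlap. Of 10 alveolar type 2 genes 6 fell, among them Cxcl15 by 0.85, but their summed level overlapped (23824 to 29061 and 23734 to 26385). Of 9 alveolar type 1 genes 2 fell, and their summed level was lower at ZT16 without overlap (8503 to 8916 at ZT4 and 7329 to 8031 at ZT16). So was that of the 3 genes found from a submucosal gland list of 6 (482.5 to 525.7 and 431.9 to 464.8). Dmbt1, 1 of the 3, was under 1 in every library, so this sum was almost all Aqp5 and Tcn2. Of these 2 tested genes 0 passed, and 1 difference was positive. The low sums of airway basal genes (2.94 to 3.96 and 5.63 to 7.56) and neuroendocrine genes (4.61 to 5.79 and 6.38 to 8.72) were higher at ZT16 without overlap. The sums of cytokine signalling genes and of relatives of the 10, given below, were lower without overlap. Of all single genes, 10.9% were higher without overlap in DT mice, and the share that was lower is not given here.

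Without both DT libraries named above, 0.828% of all genes rose and 2.28% fell in DT mice. Of the club cell genes 3 then rose (Gsta4, Cckar and Ces1g), with all 19 differences positive, and of the ciliated genes 1 rose (Ccdc40), with all 12 positive. Of the alveolar type 2 genes 4 fell, Cxcl15 by 0.84 among them, and of the alveolar type 1 genes 1 fell, Emp2. The club, ciliated, alveolar type 1 and gland sums did not overlap with all DT libraries. They could not overlap with fewer libraries, so leaving libraries out is no further check of them. The part of these cell types in the secretory genes' results was not tested.

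**Figure D5:**
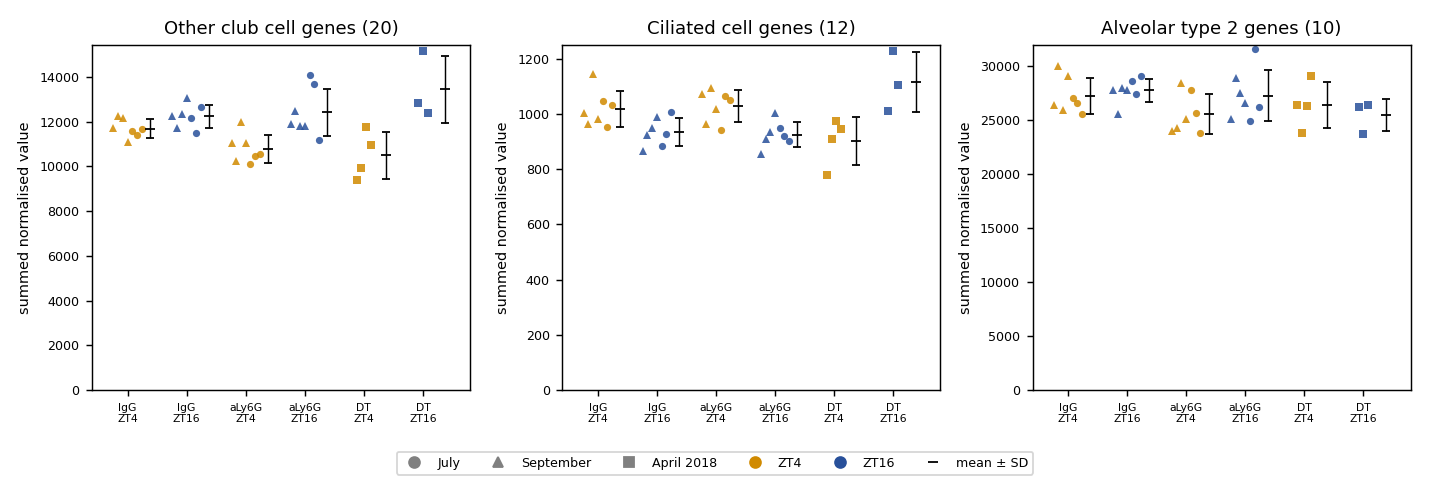
Summed normalised value of 20 other club cell, 12 ciliated cell and 10 alveolar type 2 genes in each library, with the marker for the batch and a bar for the mean ± SD. In DT mice the ciliated sums of the ZT16 libraries (1012 to 1229) lie above those of the ZT4 libraries (778 to 974), and the alveolar type 2 sums overlap.

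In control mice, 4 of the 19 club cell genes rose, the detoxifying enzymes Ces1g (1.44), Cyp4b1 (0.43), Cyp2b10 (0.56) and Cyp2a5 (0.63), and 1 fell. In anti-Ly6G mice 7 rose and 1 fell. Scgb1a1 passed in neither. Of the 12 ciliated genes 1 fell in control and 3 in anti-Ly6G mice, and 0 rose. Of all genes, 4.65% rose and 4.38% fell in control mice, and 10.6% rose and 10.4% fell in anti-Ly6G mice, which is the background of the other lists too.

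Of 16 tested mucin and goblet cell genes, 0 passed in DT mice by limma (median 0.28). Of their 16 differences 15 were positive, as were 48.5% of those of all genes. In control mice 3 of them fell, namely Muc20 (-0.56), Creb3l1 (-0.30) and Galnt6 (-0.32), and in anti-Ly6G mice 6 fell and 1 rose, with Muc20 at -0.75 and the cell-surface mucin Muc16 at -0.65. Of 20 other mucosal antimicrobial genes, 3 rose in DT mice, among them the chemokine Cxcl17 (0.69) and Wfdc2 (0.55), and 2 fell, among them Nos2 (-1.30). In control mice 3 fell, Lcn2 (-0.48), Chil1 (-0.38) and Nos2 (-0.73), and 0 rose. Without both DT libraries 1 of these antimicrobial genes rose, Wfdc2 (0.44), and 1 fell, Nos2 (-1.17). Of the mucin and goblet genes 0 then passed by limma, with 13 differences positive. Of 9 tested relatives of the 10, 1 rose and 1 fell in control mice and likewise in anti-Ly6G mice, with Bpifb5 rising in both (0.46 and 0.59). In DT mice 0 rose and 1 fell, Pltp (-0.48), which did not pass without both DT libraries (-0.40, adjusted p = 0.0717). Of their 9 differences in DT mice 3 were positive. The summed level of the relatives was lower at ZT16 in DT mice without overlap (987.9 to 1159.4 at ZT4 and 883.2 to 971.1 at ZT16). Without both DT libraries it ran from 1038.6 to 1159.4 and from 952.7 to 971.1. Leaving out libraries cannot make separate groups overlap, so this is no further check.

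Genes that act on Pigr's cargo and on cytokine signals to the epithelium were counted likewise. Of 14 IgA genes 0 passed in DT mice, while in anti-Ly6G mice 3 fell, among them the plasma cell gene Mzb1 (-0.62) and the B cell coactivator Pou2af1 (-0.91), and 2 rose, among them the cytokine Tnfsf13 (0.42). Of all genes 10.4% fell and 10.6% rose in anti-Ly6G mice. Of 21 cytokine signalling genes 5 fell and 0 rose in DT mice, among them Il33 (-0.65), Il6st (-0.38), Ifngr1 (-0.31) and Stat3 (-0.26). Their summed level was lower at ZT16 in DT mice without overlap (1869 to 2272 at ZT4 and 1584 to 1774 at ZT16). Of the 21, 1 rose and 2 fell in control mice, and 3 rose and 3 fell in anti-Ly6G mice. Il17ra, a receptor chain for interleukin 17, fell in control (-0.33) and anti-Ly6G mice (-0.28). Of all genes 4.65% rose and 4.38% fell in control mice. Of 20 airway transcription factors and Notch genes, 4 rose in DT mice, with Sox2 at 0.58 and Hes1 at 0.62, and 3 fell, with Notch1 at -0.56, beside 5.3% of all genes that rose and 9.98% that fell. Without both DT libraries 2 of the 20 rose, Sox2 (0.64) and Ehf (0.45), and 0 fell, and 0 of the IgA and cytokine signalling genes passed by limma.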

How the data were processed

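Lung RNA was amplified with the Ovation Single Cell kit and made into TruSeq libraries, per the labels' protocols. The values the authors deposited are a signal that is never negative: normalised expression per gene, with 0 zeros, a smallest value of 0.00638 and unknown depth. Per the submitters' processing notes, which assign no role or order, the build was GRCm38 and the tools included kallisto 0.43.1, RSEM 1.2.20, CASAVA 1.8.2 and cutadapt. How they were normalised or adjusted for batch: not given in the sources used here. Across 16786 genes the SD of September minus July over its standard error was 0.516 and that of DT minus anti-Ly6G 0.557, so DT levels were not tested against other treatments, and standard errors may be too small.

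Table columns name a group and a batch but no single sample. Libraries are numbered by table order within a group, each taken as a separate mouse.

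limma 3.58.1 (R 4.3.3, trend) was fitted to log2(value + 0.5) of all 35 libraries for the 16786 genes with 3 or more libraries at 1 or more (5425 removed), with 6 group means and a September term (28 residual degrees of freedom), after a check on simulated data. P-values are two-sided and Benjamini-Hochberg adjusted over these genes (threshold 0.05). September and July time differences were compared in the control and anti-Ly6G libraries. The added 0.5 makes differences of genes with low values too small.

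The 10 genes, 22 gene lists (279 symbols without the 10 genes, 236 in the table) and the alternatives were chosen with earlier results of these data known. Named are the 10 genes, per list up to 4 passing genes of smallest p, per gene the 3 other genes of highest residual correlation (here often the first alone), and marker genes of other cell types. One gene that this rule names is not reported here. Lists are described by counts and medians without a list test.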

Additional observations from a re-analysis of the deposited data

Results flagged for a closer look

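The time difference differed between DT and control mice, by limma's test of the difference itself, for Scgb1a1 (0.62), Scgb3a1 (1.06), Scgb3a2 (0.72), Ltf (1.88), Pigr (0.90) and Retnla (1.70, all log2). Between DT and anti-Ly6G mice it differed for Scgb1a1 (0.68), Scgb3a1 (1.08), Scgb3a2 (0.67), Pigr (0.97) and Retnla (2.22). The DT mice are 1 batch and genotype, which cannot be told apart from the toxin. Single libraries were also screened with Dixon's test in 50 sets of 4 to 7 values (10 genes in 5 groups), where chance flags about 1 in 20, and 0 stood apart. The ZT16 DT group of 3 was too small to screen, and it holds the library with Retnla at 199.8 against 66.7 and 73.9.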

How the results depend on the processing

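No paired analysis was possible because the numbers in the table's column names repeat between batches and do not match the labels' replicate numbers. The count of genes passing in control mice (2) was 0 in July libraries alone and 1 each in September libraries alone, with no filter on low values and with only the groups compared, and 0 to 2 on leaving out 1 library. In anti-Ly6G mice (2) it was 1 in July libraries alone. Leaving out 1 library gave 3 to 8 genes in DT mice, 3 to 9 for DT against control and 5 to 6 for DT against anti-Ly6G. Leaving out ZT4 DT library 1 and ZT16 DT library 1 together, an alternative chosen after seeing the data and also used for the gene lists, gave 0, 3 and 3.

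Sign changes occurred only in differences that had not passed. In July libraries alone, control differences became positive for Scgb1a1 (0.0446), Scgb3a1 (0.39), Bpifa1 (0.44), Ltf (0.25) and Reg3g (0.47). In anti-Ly6G mice those of Scgb1a1 (0.0451), Scgb3a1 (0.16), Muc5b (0.0277) and Reg3g (0.17) did so. In anti-Ly6G against control mice, 5 genes changed sign at ZT4 (-0.15 to -0.0448), 5 at ZT16 (-0.36 to 0.057, with Ltf at -0.0762) and 3 in the time difference (-0.13 to 0.12). September libraries alone changed 1 sign at ZT16 and 3 in the time difference, median-ratio scaling 1 at ZT16, and leaving out 1 library 5, 7 and 6 genes. In September libraries alone Bpifb1 was -0.24 in control and -0.0436 in anti-Ly6G mice, and with quantile normalisation -0.00523 in control mice. Leaving out 1 library moved the control difference of Scgb3a1 between -0.15 and 0.0409, of Bpifa1 between -0.21 and 0.16, of Bpifb1 between -0.0624 and 0.14, of Ltf between -0.36 and 0.00283, and of Reg3g between -0.25 and 0.0611. It moved the anti-Ly6G difference of Scgb3a1 between -0.16 and 0.0227 and of Reg3g between -0.24 and 0.0215, and that of Ltf at ZT16 between -0.0462 and 0.22. The cause was not tested, beyond the fewer samples of these fits.

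Quantile normalisation sets Scgb1a1 to 0 by construction, since it is the top value everywhere. Among passing differences, 28 of 198 values under the other alternatives and 36 of 336 on leaving libraries out no longer passed, and 0 changed sign.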
